A study of Mus musculus with 20 samples.

Results

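The 10 genes described here, the members, encode transcription factors of embryonic mesenchyme, the loose connective tissue from which fibroblasts come. They are the homeobox genes Meox1, Meox2, Prrx1, Prrx2, Msx1 and Msx2, the basic helix-loop-helix genes Twist1 and Twist2, and the zinc finger genes Zeb1 and Snai2. They were chosen from earlier results of the same arrays, in which Meox1 was higher and Prrx2 lower in E2F4 null cells, and the question is whether those differences are shared by other regulators of mesoderm. The genotype differences of the members are therefore given as a description, with no test. The 10 genes are among 12393 genes with a probe set of a single gene symbol, and they have 16 of the 22690 probe sets on the array.

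The cells were primary mouse embryonic fibroblasts from embryos at 13.5 days post coitum. Wild type cells came from 3 embryos (3, 3 and 4 cultures) and E2F4 null cells from 5 embryos (2 cultures each), with 1 Affymetrix array for each of the 20 cultures. The embryo and its culture were read from the numbers in the sample titles, and the embryo was the replicate. E2F4 is a transcription factor that represses cell cycle genes together with pocket proteins. The labels name no other allele, treatment, strain, sex or litter, and do not say how the null allele was made. The labels mention no sorting of the cells, and in these bulk RNA measurements fewer cells of a type and less RNA per cell cannot be told apart.

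In the embryo several of these factors act in the same tissues. Meox1 and Meox2 act in somites, the segmented blocks that give rise to the axial skeleton, muscle and dermis. Prrx1 and Prrx2 mark mesenchyme of the limb and face, where Msx1 and Msx2 respond to bone morphogenetic proteins (BMPs) and Twist1 and Twist2 keep cells undifferentiated. Zeb1 and Snai2 repress E-cadherin and other epithelial genes, and both are known for their part in the transition from epithelium to mesenchyme.

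RefSeq promoters were available for 7 of the members, taken here as the 250 bases before the start. The stretches of Prrx1, Prrx2 and Msx2 are shown, as 3 of the genes for which the same embryos stood at the ends of each genotype. By the probe set used for each gene, wild type embryo 2 and null embryo 1 were lowest for Prrx1 and Prrx2. Wild type embryo 3 and null embryo 5 were highest. For Msx2 it was the other way round. Capitals mark matches to the word TAATTA, a core bound by many homeodomain proteins, 5′ to 3′ on the gene's strand and in the build GRCm38.p6. They lie at chr1:163313651-163313900 (minus strand), chr2:30845117-30845366 (plus strand) and chr13:53472781-53473030 (minus strand).
Prrx1: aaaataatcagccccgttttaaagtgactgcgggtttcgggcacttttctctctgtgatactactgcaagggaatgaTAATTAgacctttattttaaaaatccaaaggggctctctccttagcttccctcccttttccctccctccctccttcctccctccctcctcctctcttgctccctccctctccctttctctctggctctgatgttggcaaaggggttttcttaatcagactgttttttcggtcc
Prrx2: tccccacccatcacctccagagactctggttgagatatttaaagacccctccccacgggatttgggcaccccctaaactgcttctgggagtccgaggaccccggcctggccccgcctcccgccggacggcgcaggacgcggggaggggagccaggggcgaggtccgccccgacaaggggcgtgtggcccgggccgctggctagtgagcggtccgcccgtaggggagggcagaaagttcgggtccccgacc
Msx2: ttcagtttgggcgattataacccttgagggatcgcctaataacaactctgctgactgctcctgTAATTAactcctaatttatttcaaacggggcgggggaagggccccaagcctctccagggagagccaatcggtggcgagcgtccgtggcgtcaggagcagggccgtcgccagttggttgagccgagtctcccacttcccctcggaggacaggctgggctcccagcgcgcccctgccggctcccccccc

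TAATTA, which reads the same on both strands, occurred in 2 of the 7 member stretches, once in each of those of Prrx1 and Msx2. It occurred in 4.84% of the 32851 promoter stretches of that length. The stretches of Twist1 and Meox2, genes with the same end embryos as Prrx1, did not hold it. An E2F site, searched on both strands as TTTCCCGC, TTTGGCGC, TTTGCCGC or TTTCGCGC, was found in 0 of the 7 member stretches and in 1.86% of all. CACCTG, the word bound by Zeb1 and Snai2, occurred in 1 of the 7, that of Msx1, and in 17.2% of all. No words of the 3 kinds overlapped in these 7 stretches. Absence of a word says only that those letters are not in the window.

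Fibroblast identity was checked first. All 12 fibroblast markers passed the filter on low signals (a mean of at least 83.2 over the arrays), and their summed signal ran from 101369 to 102720 in wild type embryos and from 89825 to 103936 in null embryos. Of the genes that define other cells, 0 of 6 endothelial, 1 of 6 epithelial (Krt18), 1 of 7 skeletal muscle (Des), 2 of 6 neural (Nes and Tubb3), 2 of 4 adipocyte and 3 of 6 cartilage markers passed. Macrophage markers passed in 7 of 8, with sums of 1626 to 2480 in wild type and 1281 to 4372 in null embryos. The signal of E2f4 itself averaged 214 ± 6.47 over wild type embryos (SD, n = 3) against 166 ± 17.6 over null embryos (SD, n = 5), and the labels do not say whether its probe set lies in the deleted part. All 20 cultures were closest to another culture of their own embryo. The ratio of 3′ to 5′ control signal for Gapdh, a sign of RNA quality, was 0.735, 0.747 and 0.741 in wild type embryos 1 to 3 and 0.707, 0.708, 0.714, 0.708 and 0.725 in null embryos 1 to 5, with no overlap between the genotypes. Single cultures overlapped (0.716 to 0.764 and 0.685 to 0.749). The same ratio for beta-actin ran from 1.13 to 1.16 in wild type embryos and from 1.11 to 1.20 in null embryos, with overlap.

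**Figure D1:**
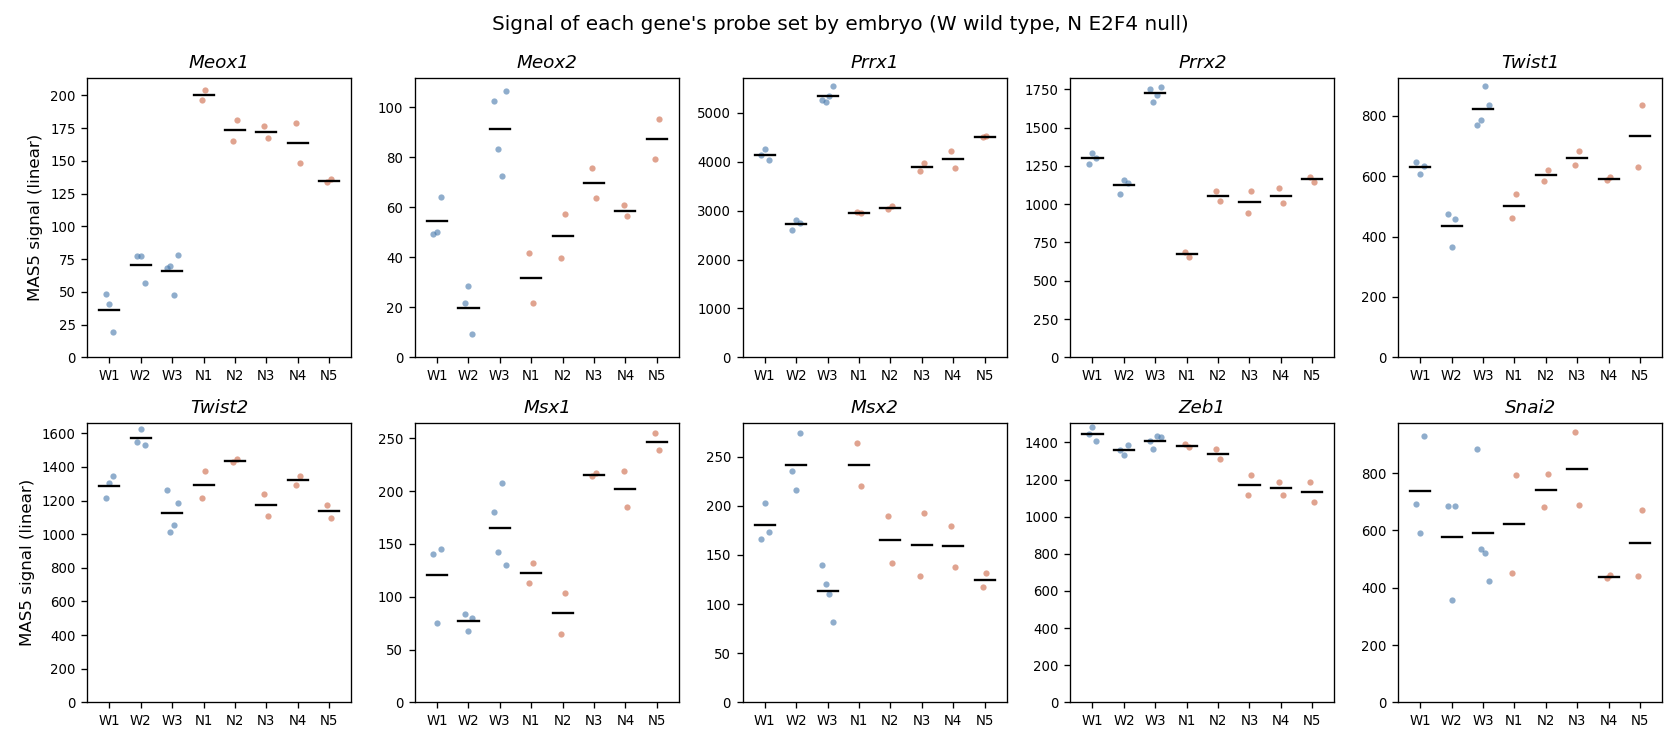
Signal (linear MAS5 units, y axis from 0) of the probe set used for each of the 10 genes, for 3 wild type embryos (W1 to W3, blue) and 5 E2F4 null embryos (N1 to N5, orange). Each point is a culture and each bar the mean of an embryo, and only for Meox1, with all wild type cultures at or below 78.1 and all null cultures at or above 133, do the genotypes not overlap.

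Meox1 was the only member whose null and wild type embryos did not overlap. Its signal was 36.1, 70.5 and 65.7 in wild type embryos 1, 2 and 3. In null embryos 1 to 5 it was 200.1, 173, 172, 164 and 135. Null embryo 1 was highest and wild type embryo 1 lowest, and at the level of cultures the wild type maximum, 78.1, lay below the null minimum, 133. The means were 57.4 ± 18.7 (SD, n = 3) and 169 ± 23.4 (SD, n = 5), a difference of 1.38 (SE 0.19) in log2(signal + 16), the scale of all differences here, where the added 16 understates changes of low signals. Every wild type culture was under the filter value of 83.2, so Meox1 passed that filter only through the null cultures, and how far its wild type signal stood above background is unknown without detection calls. The Gapdh ratio of RNA quality separated the same embryos by genotype, and its part in the result was not tested.

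Meox2, the paralog of Meox1, has 2 probe sets, and neither passed the filter. By the brighter one its signal was 54.5, 19.8 and 91.4 in wild type embryos 1 to 3 and 31.7, 48.5, 69.8, 58.7 and 87.3 in null embryos 1 to 5. The null embryos lay inside the wild type range. The differences were 0.18 (SE 0.35) by this probe set and 0.08 (SE 0.20) by the other. Without wild type embryo 2 the first value turned to -0.26, and without wild type embryo 3 it was 0.54, so it has no settled sign.

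Prrx2, a paired-related homeobox gene, had 1 probe set. Its signal was 1298, 1123 and 1724 in wild type embryos 1 to 3 and 672, 1053, 1013, 1057 and 1161 in null embryos 1 to 5. Wild type embryo 3 stood highest and null embryo 1 lowest, while null embryo 5 lay above wild type embryo 2, so the groups overlapped. The means were 1382 ± 310 (SD, n = 3) and 991 ± 187 (SD, n = 5), a difference of -0.47 (SE 0.19). Without wild type embryo 3 it was -0.30, without null embryo 1 it was -0.34 and without wild type embryo 2 it was -0.61.

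Prrx1, which acts with Prrx2 in the limb and face, has 4 probe sets. By the one with the highest mean its signal was 4144, 2719 and 5346 in wild type embryos 1 to 3 and 2959, 3058, 3887, 4049 and 4514 in null embryos 1 to 5. All null embryos lay inside the wild type range, which was set by wild type embryos 2 and 3. The difference was -0.10 (SE 0.22) by this probe set, and -0.24, -0.23 and -0.25 (SE 0.17 to 0.21) by the others. All 4 probe sets lay below 0, but without wild type embryo 3 the first turned to 0.12.

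Twist1, required for head mesenchyme and limb buds, showed no offset between genotypes. Its signal was 630, 434 and 824 in wild type embryos 1 to 3 and 502, 603, 659, 592 and 732 in null embryos 1 to 5, a difference of 0.01 (SE 0.19). Twist2, which acts in the dermis, had 1288, 1570 and 1129 in the wild type embryos and 1295, 1438, 1175, 1319 and 1136 in the null embryos, a difference of -0.05 (SE 0.12). For both genes the null embryos lay inside the wild type range. The highest and lowest wild type embryos changed places between the paralogs, with embryo 3 highest for Twist1 and embryo 2 highest for Twist2.

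Msx1 and Msx2, homeobox genes induced by BMPs, were near the filter. By its brighter probe set Msx1 had 120.4, 77.0 and 165 in wild type embryos 1 to 3 and 123, 84.5, 216, 202 and 247 in null embryos 1 to 5. Null embryos 3 to 5 were above every wild type embryo and null embryos 1 and 2 were not. Its difference was 0.46 (SE 0.34), while the other probe set, below the filter, gave -0.05 (SE 0.20). Without wild type embryo 2 the 0.46 fell to 0.22, and without wild type embryo 3 it was 0.69. Msx2 had 181, 242 and 113 in the wild type embryos and 242, 166, 160.5, 159 and 124 in the null embryos, with full overlap and a difference of -0.03 (SE 0.24).

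Zeb1, the repressor of epithelial genes, had the narrowest spread of the wild type embryos, with 1444, 1360 and 1410 by its brighter probe set. In null embryos 1 to 5 it was 1383, 1338, 1172, 1153 and 1134. Null embryos 3, 4 and 5 lay below all wild type embryos, but null embryo 1 lay above wild type embryo 2. The difference was -0.19 (SE 0.08). The other Zeb1 probe set read 24.0 at most on any array and gives no usable value.

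Snai2, the other repressor of E-cadherin, did not separate at all. It had 738, 576 and 591 in wild type embryos 1 to 3 and 621, 740.2, 816, 439 and 556 in null embryos 1 to 5, means of 635 ± 89.2 (SD, n = 3) and 634 ± 149 (SD, n = 5). Sister cultures of 1 embryo differed more than embryos did, with a standard deviation of 0.40 between cultures and 0.30 between embryos (log2). For Prrx1 the same values were 0.05 and 0.36, and for Prrx2 0.07 and 0.31, so there nearly all the spread lay between embryos.

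**Figure D2:**
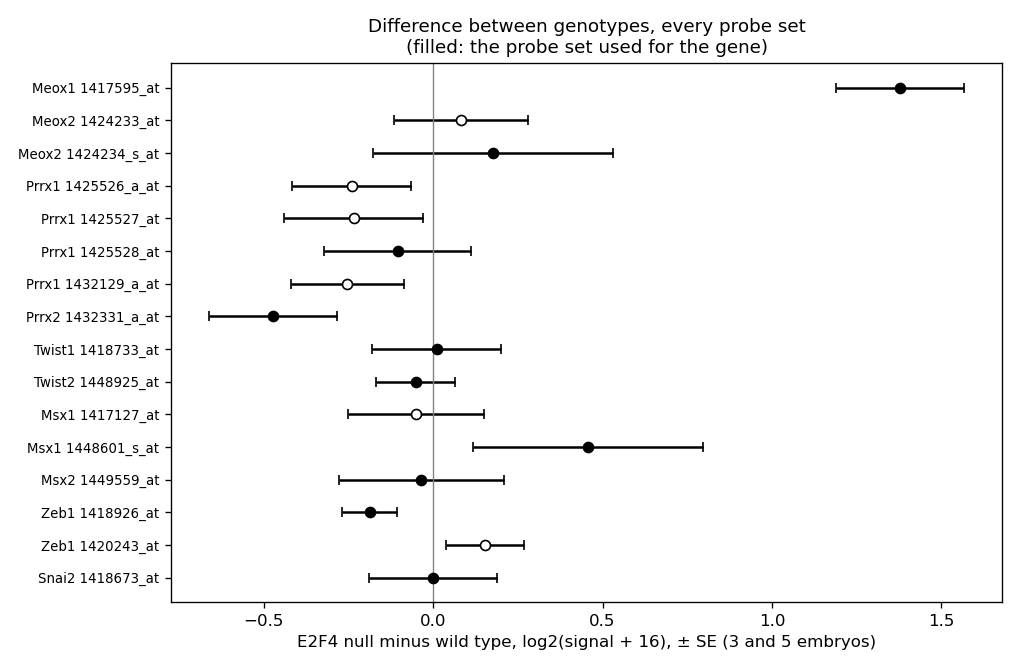
Difference between genotypes (E2F4 null minus wild type, log2(signal + 16), x axis) with its SE from limma over 3 and 5 embryos, for all 16 probe sets of the 10 genes. Filled points are the probe sets used for the genes, of which Meox1 at 1.38 and Prrx2 at -0.47 lie farthest from 0. The genes were chosen with these 2 differences known.

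Of the members 9 passed the filter, of which 3 lay above 0 and 6 below, with a median of -0.03. Over all 7436 genes tested 48.9% lay above 0, with a median of -0.00350. Embryo groups did not overlap upward for 1 member (Meox1) and downward for 0, and over all genes for 2.95% and 3.71%. Nothing is read from these counts, because the same contrast was used to choose the genes.

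Differences between embryos of 1 genotype did not enter the choice of the members, and these were tested with limma's moderated F test over cultures, adjusted over all 7436 genes. Meox1 was left out within wild type, where all its signals were under the filter. Wild type embryos differed for 6 of the other 8 members, where 50.1% of the 7399 genes with a wild type mean at the filter value or above were called. Null embryos differed for 5 of the 9, where 22.9% were called. Cultures of 1 embryo share their cells, so the p-values measure spread between cultures and not between litters. Both genotypes gave a call for Prrx1, Prrx2, Twist2 and Msx1.

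Prrx1 had an F adjusted p = 3.4e-09 between wild type embryos and 7.1e-05 between null embryos by limma, the smallest among the members in each genotype. Prrx2 had 1.1e-06 and 0.00026, and its null call was lost without null embryo 1 (adjusted p = 0.358), whose 672 was far under the other 4 embryos. Msx1 had 0.0039 and 0.00048. Its wild type call was lost without wild type embryo 2 (adjusted p = 0.185) or 3 (0.0837) and with cultures 1 and 2 only (0.0524). Twist2 had 0.00040 between wild type embryos and 0.0497, just under the threshold, between null embryos, where 8 of 14 alternatives ended it. Leaving out wild type embryo 2 ended its wild type call too (adjusted p = 0.130).

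Twist1 (limma F adjusted p = 4.5e-06) and Msx2 (0.00018) differed between wild type embryos, and between null embryos they reached 0.0563 and 0.0615. Alternatives called both between null embryos, Twist1 with the culture number as a block (limma adjusted p = 0.0269) and Msx2 with median centring (0.0464) and without null embryo 3 (0.0256) or 4 (0.0495). For Meox1 the limma adjusted p between null embryos was 0.121. Zeb1 was called between null embryos alone (limma adjusted p = 0.0419 against 0.386 in wild type), a call that 8 of 14 alternatives ended, among them leaving out null embryo 1 (0.143), 2 (0.103), 4 (0.0589) or 5 (0.0532). Snai2 passed in neither (limma adjusted p = 0.369 and 0.0802), but was called between null embryos without null embryo 1 (0.0170) or 5 (0.0356). Whether the differences between embryos are larger in one genotype than in the other was not tested.

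The same embryos stood at the ends for most members. After each genotype's mean was taken off, wild type embryo 2 was lowest and wild type embryo 3 highest for Prrx1, Prrx2, Twist1, Msx1 and Meox2, and the other way round for Twist2 and Msx2. Meox2 was under the filter. The dimmer Msx1 probe set, also under it, had wild type embryo 2 highest instead (95.4 against 51.1 and 61.3 in wild type embryos 1 and 3). Among null embryos, embryo 5 was highest for those 5 genes and lowest for Twist2 and Msx2. Null embryo 1 deviated by -0.30 for Prrx1, -0.53 for Prrx2, -0.28 for Twist1, -0.37 for Msx1 and -0.63 for Meox2, and by 0.50 for Msx2 but only 0.03 for Twist2. Null embryo 2 had no common sense, with -0.25 for Prrx1, -0.86 for Msx1 and -0.18 for Meox2 but -0.02 for Twist1 and 0.11 for Prrx2. By the other Prrx1 probe sets null embryo 2 deviated by -0.27, -0.43 and -0.39, and null embryo 1 by only -0.08, -0.06 and -0.18. By some of these null embryo 4 was highest (0.26 and 0.27), with 0.24 and 0.20 in null embryo 5. Meox1, Zeb1 and Snai2 did not have these embryos at their ends in both genotypes. Meox1 and Zeb1 did have null embryo 1 highest and null embryo 5 lowest, as Msx2 had. Among wild type embryos Meox1 was highest in embryo 2 but lowest in embryo 1, and Zeb1 was highest in embryo 1.

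**Figure D3:**
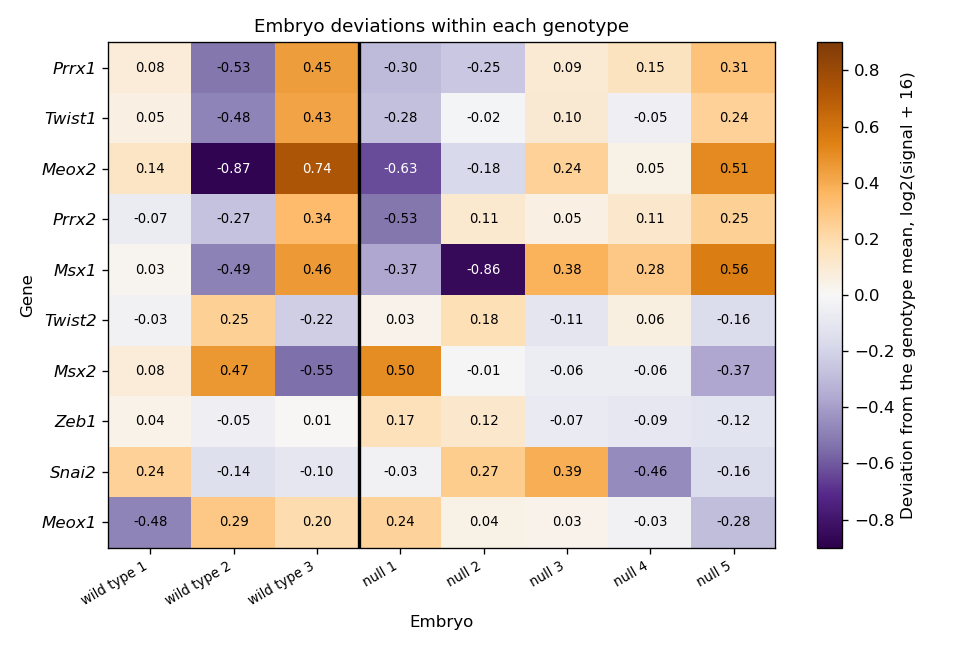
Deviation of each embryo (columns) from the mean of its genotype in log2(signal + 16), for the probe set used for each gene (rows), with the black line parting 3 wild type from 5 null embryos. Prrx1, Twist1, Meox2, Prrx2 and Msx1 are negative in wild type embryo 2 and positive in wild type embryo 3 and null embryo 5, and Twist2 and Msx2 have the opposite signs there.

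Correlations over the 8 embryos, with genotype means taken off, describe the same pattern. Prrx1 had r = 0.97 with Meox2, 0.93 with Twist1, 0.87 with Msx1 and 0.79 with Prrx2, and r = -0.91 with Msx2 and -0.90 with Twist2. Its r was -0.44 with Meox1, -0.45 with Zeb1 and -0.14 with Snai2. This pattern was not particular to these factors, since 995 of 7435 other genes (13.4%) had an r over 0.9 or under -0.9 with Prrx1. All values share the same arrays and the same 8 embryos.

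For the 4 pairs of paralogs an exact permutation of embryos within genotypes (two-sided, 720 permutations) was run after the pattern had been seen, so its p-values describe that pattern and nothing is called from them. Prrx1 and Prrx2 moved in the same sense, with Pearson's r = 0.79 (exact p = 0.0208, 0.0833 adjusted over the 4 pairs) and Spearman's rho = 0.90 (exact p = 0.00694, 0.0278 adjusted). Without the 2 embryos farthest from the median of Prrx1, r was 0.63. Twist1 and Twist2 moved in opposite senses, with r = -0.86 (exact p = 0.0458, 0.0917 adjusted) and rho = -0.90 (exact p = 0.0278, 0.0556 adjusted), and r = -0.61 without the 2 farthest embryos. Msx1 and Msx2 had r = -0.69 (exact p = 0.0694, 0.0926 adjusted) and rho = -0.79 (exact p = 0.0472, 0.0630 adjusted), and r = -0.93 without the 2 farthest. These values hold for the brighter Msx1 probe set, and the dimmer one, with wild type embryo 2 highest, did not enter. Meox1 and Meox2 had r = -0.46 (exact p = 0.486) and rho = -0.52 (exact p = 0.331), with r = -0.45 without the 2 farthest. With an embryo left out, Pearson's r ran from 0.69 to 0.91 for the Prrx pair, from -0.96 to -0.70 for the Twist pair and from -0.98 to -0.59 for the Msx pair. The values farthest from 0 came without null embryo 2, where the exact permutation p adjusted over the pairs was 0.0278, 0.0370 and 0.0278, and without wild type embryo 2 it was 0.183, 0.222 and 0.222.

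Markers of some other cells varied with these embryos and those of others did not. Skeletal muscle markers summed to 271, 460.3 and 219.9 in wild type embryos 1 to 3 and to 616, 449, 302, 231 and 331 in null embryos 1 to 5. Neural markers summed to 819, 1049 and 849 and to 1364, 1264, 938, 807 and 836, and epithelial markers to 210.5, 304 and 149.9 and to 336, 334, 246, 239 and 223. Wild type embryo 2 and null embryos 1 and 2, where Prrx1 was low, had the highest sums of their genotype for all 3 lists, although 1 of 7 muscle, 2 of 6 neural and 1 of 6 epithelial genes passed the filter. Adipocyte markers, of which 2 of 4 passed the filter, were lowest in wild type embryo 1 and in null embryos 1 and 2. They summed to 290, 337 and 522 in wild type embryos and to 264, 300.1, 392, 468 and 431 in null embryos. Macrophage markers summed to 1644, 2480 and 1626 and to 1281, 2037, 2291, 4372 and 2541, highest in wild type embryo 2 but lowest in null embryo 1. Cartilage markers (823, 831 and 898, then 912, 883, 1028, 895 and 908) had null embryo 3 highest. Endothelial markers, all under the filter, summed to 92.4 to 171. The part of these cells in the result was not tested.

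The genes whose embryo pattern was most like that of Meox1, by Pearson's r over the 8 embryos with genotype means taken off, were Epb41l3, a membrane skeleton protein (0.96), Ap2a1, a clathrin adaptor subunit (0.94), the endosomal GTPase Rab5c (0.93), Etv4, an ETS transcription factor (0.93), and the semaphorin receptor Plxnb2 (0.93). For Meox1 10 genes had an r over 0.9, and all its wild type signals, which enter r, were under the filter. Etv4 is also the next tested gene to Meox1 on chromosome 11. Its difference between genotypes was 0.42 (SE 0.21, limma adjusted p = 0.615). Of the 10 nearest tested genes, 5 on each side, 0 were called by limma and 0 had an unadjusted p under 0.05, with differences from -0.21 to 0.42, so the 1.38 of Meox1 was not shared by its neighbours. For Prrx2 the most alike were Rnaseh1, a ribonuclease of RNA-DNA hybrids (0.99), Uxs1, which makes UDP-xylose (0.99), the pseudouridine synthase homolog Trub2 (0.98), the extracellular superoxide dismutase Sod3 (0.98) and the RNA-binding protein gene Hnrnpa2b1 (0.97), and 77 genes had an r over 0.9. Its 10 nearest tested genes on chromosome 2 differed by -0.10 to 0.06 between genotypes, and limma called 0 of them, with 0 at an unadjusted p under 0.05.

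Related regulators outside the 10 genes were taken from 5 lists. The lists were written with earlier results of these data known, but not picked for how their genes moved. Over all 7436 genes limma with Benjamini-Hochberg adjustment called 0.0134% (1 gene) between genotypes, and 8.73% had an unadjusted p under 0.05. Of the somite and paraxial mesoderm regulators, 5 of 27 on the array passed the filter. Limma called 0 of these 5 and gave 0 an unadjusted p under 0.05, with 2 above 0 and a median of -0.07. The homeobox gene Six4 differed by 0.12 (SE 0.08), the forkhead gene Foxc2 by -0.21 (SE 0.15) and the T-box gene Tbx18 by -0.29 (SE 0.23), with limma adjusted p = 0.712 to 0.744. The other 22, with Pax1, Pax3, Tbx6 and Tcf15 in the list, were too dim to enter.

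Limb and craniofacial transcription factors had 22 of 48 genes measured. Limma called 0 and gave 2 an unadjusted p under 0.05, both lower, with 10 above 0 and a median of -0.02. Tbx15, a T-box gene of skeleton and skin, had 718, 636 and 820 in wild type embryos 1 to 3 and 595, 445, 598, 528 and 592 in null embryos 1 to 5, without overlap, a difference of -0.39 (SE 0.12, limma adjusted p = 0.403). Gli3, a mediator of hedgehog signals, had 118 ± 11.8 (SD, n = 3) and 87.2 ± 4.76 (n = 5), also without overlap, a difference of -0.37 (SE 0.10, limma adjusted p = 0.363). Runx1 differed by -0.36 (SE 0.18, limma adjusted p = 0.612).

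Regulators of epithelial-mesenchymal transition and partners of the Twist proteins had 10 of 17 genes measured, of which 8 lay below 0, with a median of -0.26. Limma called 0, and 2 had an unadjusted p under 0.05, Id1 and Id3, whose proteins hold helix-loop-helix factors off DNA. Id1 had 1666, 1471 and 1643 in wild type embryos and 857, 1258, 909, 763 and 904 in null embryos, a difference of -0.77 (SE 0.14, limma adjusted p = 0.190). Id3 had 3560 ± 368 (SD, n = 3) and 2604 ± 429 (n = 5), a difference of -0.46 (SE 0.12, limma adjusted p = 0.363), with null embryo 2 among the wild type embryos. Klf4 differed by 0.23 (limma adjusted p = 0.593). Zeb2 and Snai1, the closest relatives of Zeb1 and Snai2 here, differed by -0.40 (SE 0.25) and -0.18 (SE 0.11), and limma gave them adjusted p = 0.694 and 0.680.

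Genes of the BMP, TGF-beta, WNT and FGF pathways that act upstream of these factors had 26 of 41 measured. Of these 23 lay below 0 and 3 above, with a median of -0.17, where 51.1% of all genes lay below 0. Limma called 0, and 3 had an unadjusted p under 0.05, all lower. They were the BMP antagonist Grem1 at -0.40 (SE 0.15, limma adjusted p = 0.476), the BMP receptor Bmpr2 at -0.29 (SE 0.12, limma adjusted p = 0.528) and the inhibitory SMAD gene Smad7 at -0.27 (SE 0.11, limma adjusted p = 0.528). Bmp4, a ligand known to induce Msx genes, differed by -0.19 (limma adjusted p = 0.865).

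Reported targets of the members had 8 of 12 measured, 4 above and 4 below 0, with a median of -0.03. Limma called 0 of them and gave 0 an unadjusted p under 0.05. The matrix genes Fn1 and Tnc differed by -0.18 (SE 0.14) and -0.14 (SE 0.16), and Postn, the gene of periostin, by 0.08 (SE 0.09), with limma adjusted p = 0.746 to 0.833. The cell cycle inhibitor genes Cdkn1a and Cdkn2a, which Meox proteins are reported to activate, differed by -0.20 (SE 0.32) and 0.15 (SE 0.22). Cdh1, the E-cadherin gene repressed by Zeb1 and Snai2, was below the filter.

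**Figure D4:**
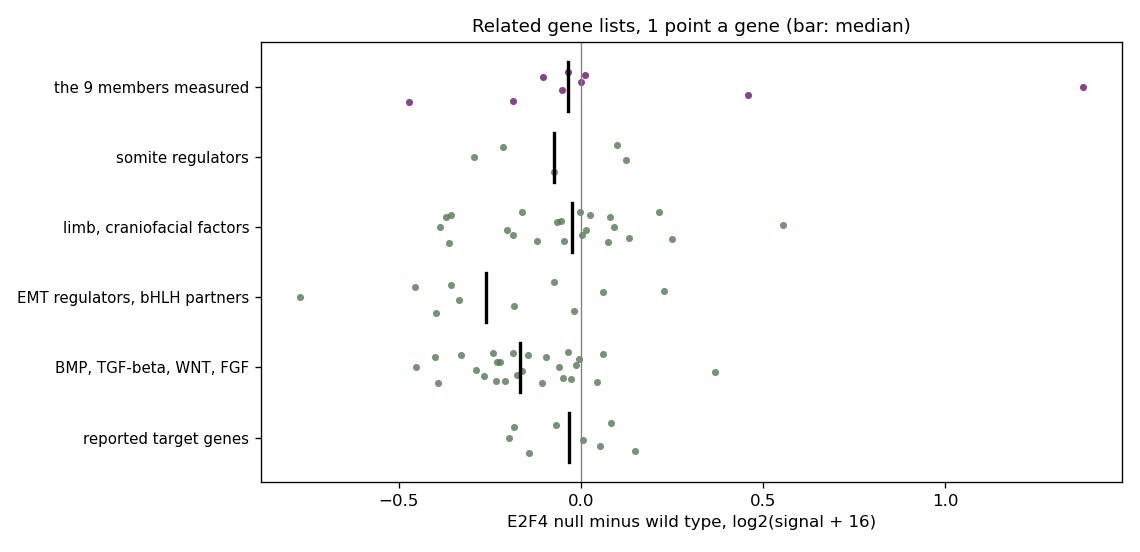
Difference between genotypes (E2F4 null minus wild type, log2(signal + 16), x axis) for the 9 members that passed the filter (purple) and for the genes of 5 related lists (green), 1 point a gene, with black bars at the medians. The medians run from -0.26 to -0.02. Meox1, which was chosen because it was higher in the null, lies at 1.38, above every gene of the lists.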

How the data were processed

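RNA of 20 fibroblast cultures was measured on 1 Affymetrix array each. Per the submitters' processing notes the authors used MAS5, and the signal intensities they deposited are linear. Neither its version nor its scaling target is given in the sources used here. Their 2% trimmed mean was 500.2 on every array, so they were not rescaled. Such scaling hides a change shared by all genes, and the number of arrays limits the precision.

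Symbols came from the platform annotation, updated through the RefSeq gene table (20351 of 20380 matched). Values were converted to log2(signal + 16) and averaged per embryo. A gene with several probe sets was represented by the one of highest mean, and 7436 of 12393 genes had a mean at or above the 40th percentile (83.2) and were tested. Fits used limma 3.58.1 in R 4.3.3 (lmFit, eBayes with trend, two-sided, Benjamini-Hochberg over all genes, threshold 0.05), on embryo means between genotypes and on cultures between embryos. SEs of probe sets outside this set came from a fit of all probe sets. On simulated data for 7436 genes the genotype fit recovered 26 of 67 genes changed by 0.5, 61 of 67 by 1 and 64 of 66 by 2, with 7 false calls. For the F test, embryo differences with an SD of 0.3 (log2) were simulated in 200 genes. It recovered 107 of them within wild type and 113 within null, with 6 false calls each. There all other genes had no embryo differences, unlike the many genes called in the data. In both simulations genes varied independently, and the genotype simulation held many changed genes where limma called 1 in the data. Neither the recovered genes nor the false calls therefore describe these data.

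The members and lists were chosen with earlier results of these data known. Named genes were the members, E2f4, the 3 genes of each list with the smallest p where none was called, and the 5 genes most like Meox1 and Prrx2. Zeb2, Snai1, Bmp4, Cdkn1a, Cdkn2a and Cdh1 were named after their values were seen. Alternatives covered the pseudocount, filter, probe sets, scaling, blocks and each embryo left out. The correlations of paralogs, their alternatives and the limit on wild type mean signal in the F test were added after the data were seen.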

Additional observations from a re-analysis of the deposited data

Results flagged for a closer look

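For the 42 probe sets of members and named genes, the gap between the highest or lowest null embryo and the nearest other, as a share of the range of the 5 null embryos, was set against Dixon's critical value, which chance passes in about 1 in 20 groups. It was passed for 6. Null embryo 1 was low for Prrx2 (0.745), Rnaseh1 (0.819), Uxs1 (0.761) and Sod3 (0.827), of which the last 3 had been picked as the genes most like Prrx2 and so share that pattern by choice. Null embryo 2 was high for Id3 (0.919), at 3369 where the other null embryos had 2383 to 2458. Null embryo 5 was high for E2f4 (0.717), at 196 where the others had 155 to 167.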

How the results depend on the processing

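The difference of Meox1 moved most with the pseudocount, from 1.38 to 0.95 with 64 added, and ran from 1.14 to 1.52 with an embryo left out. Prrx2 lay below 0 under all 18 alternatives (-0.61 to -0.30), as did Zeb1. Between genotypes limma called 1 gene of all, 0 with every probe set, with the embryo number as a replicate block or with cultures 1 and 2 only, 80 (27 higher and 53 lower) with the embryo as a random block, and 0 to 11 with an embryo left out, 11 of them without wild type embryo 2. The replicate block gave 1.48 for Meox1 and -0.59 for Prrx2. The main fit had no such block, because the same number in the 2 genotypes names different embryos. Deviations of same-numbered embryos correlated at 0.09, 0.64 and 0.42 for numbers 1, 2 and 3. Whether embryos of the same number share a condition was not tested. Calls between wild type embryos numbered 3722, and 6222 with every probe set, 2186 with cultures 1 and 2 only, and 1121 to 3391 with an embryo left out. Members called there, Meox1 included, numbered 7, and 4 with the filter at the 60th percentile, which drops 3 of them, and 4 to 6 with an embryo left out. Calls between null embryos numbered 1704, and 990 to 1729 with an embryo left out, and members called there 3 with no filter, 3 with every probe set and 3 to 5 with an embryo left out. Leaving out embryos moved r from 0.69 to 0.91 for Prrx1 and Prrx2, from -0.96 to -0.70 for Twist1 and Twist2 and from -0.98 to -0.59 for Msx1 and Msx2. The causes were not tested. Without detection calls it is unknown how far signals under the filter stood above background.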
